A study of Rattus norvegicus with 3 samples.

Results

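Genes that mark microglia and macrophages were examined in RNA of the acellular fraction of rat spinal cord, with and without spinal cord injury (SCI). A fixed set of 40 symbols was looked up by name in the table of group values. Of these, 16 mark resting (homeostatic) microglia or microglia in general, and 24 mark activated microglia or macrophages. The table held 36 of the 40, 13 homeostatic and 23 activated, among 12758 symbols in all. SIGLECH, SELPLG, FCRLS and MS4A7 had no entry under these names in the table as used here. Here and below, a missing entry gives no level and cannot be read as a low one. The rat reference gives Fcrls as another name of Fcrl2, and FCRL2 was entered with 10.8 FPKM in No-SCI and 12.1 FPKM in SCI. It was not counted with the 36.

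The animals were female Sprague Dawley rats of 3 months. All of them had a laminectomy at thoracic level 9, which is a surgical wound in itself, so No-SCI means laminectomy alone and SCI means laminectomy with a contusion of the cord. About 24 h later, tissue just rostral to the injury was digested at 6°C with a protease active in the cold, cells were pelleted, and total RNA of the supernatant was sequenced after removal of ribosomal RNA. By the treatment labels, 2 libraries were No-SCI and 1 was SCI, while 2 animals per condition are stated in the methods. For each gene there is 1 value per group, estimated by the authors as FPKM, a count of fragments scaled for transcript length and sequencing depth. No value per library or read count was used, so no replicate error, interval or test can be given, the depth behind a value is unknown, and differences are described by their size alone. No value in the table lies below 1 FPKM, and the values may include an added constant of 1, which would make the ratios of low genes too small.

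Microglia are the resident macrophages of the central nervous system. They depend on the receptor CSF1R and on the transcription factor PU.1 (gene SPI1), and at rest they carry a typical set of surface proteins such as TMEM119 and P2RY12. After damage they change shape, take up debris, lower parts of the resting program and raise genes of phagocytosis and lipid handling, several of them through TREM2 and its adaptor TYROBP. Macrophages of the meninges and vessels, and monocytes from the blood, share many of these genes. The macrophages of the meninges and vessels are marked by others such as CD163, LYVE1 and MRC1.

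After SCI, the activated genes had higher ratios to No-SCI than the homeostatic ones. The log2 ratio (SCI over No-SCI) had a median of 0.42 over the 23 activated genes and −0.20 over the 13 homeostatic genes, a difference of 0.62, where all symbols had a median of −0.12. At least 2-fold higher in SCI were 8 activated genes (34.8%) and 1 homeostatic gene (7.69%), beside 7.93% of all symbols. At least 2-fold lower was 1 homeostatic gene, CSF1R, and 0 activated genes, beside 12.1% of all symbols. Of all symbols, 43.6% were higher in SCI by any amount. Here, 18 of the 36 genes were higher and 18 lower, 14 of the 18 higher ones being activated genes. In RNA of a bulk fraction, fewer cells of a type and less RNA per cell cannot be told apart. Nor can a smaller part of that RNA reaching the supernatant, since cells were pelleted first.

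**Figure D1:**
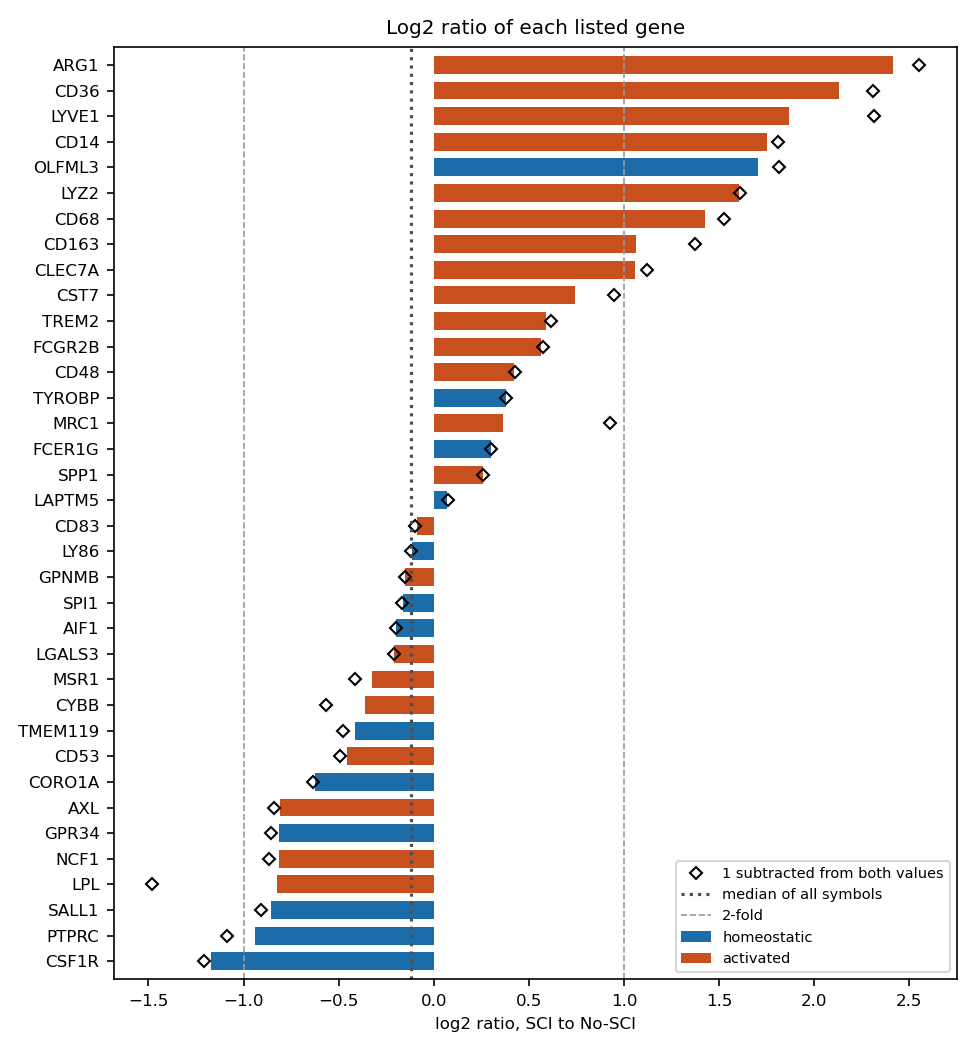
Log2 ratio of SCI to No-SCI for each of the 36 listed genes (horizontal axis), with homeostatic genes in blue and activated genes in orange; dashed lines mark 2-fold, the dotted line the median of all symbols, and diamonds the ratio with 1 subtracted from both values. Of the 9 bars beyond 2-fold on the right, 8 are activated genes, and the single bar beyond 2-fold on the left is CSF1R.

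Of the 13 homeostatic genes 9 were lower in SCI, beside 7190 of all 12758 symbols, and 8 of these 9 by less than 2-fold. With the median of all symbols set to 0, the homeostatic median log2 ratio was −0.08. Of the 3 signature surface and secreted genes, 2 were lower and 1 was higher. TMEM119, a membrane protein of resident microglia, had 8.66 FPKM in No-SCI and 6.49 in SCI, a log2 ratio of −0.42. For GPR34, a receptor for lysophosphatidylserine, the value was 27.0 FPKM in No-SCI and 15.4 in SCI (log2 ratio −0.81). OLFML3, a secreted olfactomedin-like glycoprotein, differed in the other direction, with 9.45 FPKM in No-SCI and 30.8 in SCI, which is 3.26-fold higher (log2 ratio 1.70). It was the only homeostatic gene at least 2-fold higher. OLFML3 is not restricted to microglia, being made by fibroblasts and vascular cells as well.

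Among the transcription factors, SALL1, which maintains microglial identity, had 23.8 FPKM in No-SCI and 13.2 in SCI (log2 ratio −0.86). SPI1 had 51.6 and 46.1 FPKM (log2 ratio −0.16), a ratio close to the median of all symbols. SALL1 was thus 1.81-fold lower in SCI and SPI1 1.12-fold lower.

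Receptors and their adaptors split. CSF1R, the receptor for the survival factors CSF1 and IL-34, had 47.4 FPKM in No-SCI and 21.1 in SCI, 2.25-fold lower (log2 ratio −1.17). PTPRC, the leukocyte phosphatase CD45, had 10.4 and 5.45 FPKM (log2 ratio −0.94), just short of 2-fold. In contrast, both adaptors that carry an activation motif in their cytoplasmic tail were slightly higher. FCER1G, the common gamma chain of Fc receptors, stood at 251 FPKM in No-SCI and 310 in SCI (log2 ratio 0.30). TYROBP, also called DAP12, the partner of TREM2, stood at 182 and 236 FPKM (log2 ratio 0.38). The lysosomal membrane protein LAPTM5 (17.9 and 18.8 FPKM) and LY86, which binds the Toll-like relative RP105 (25.9 and 23.9 FPKM), differed by log2 ratios of 0.07 and −0.11, and the sign of LY86 turned when the median of all symbols was set to 0.

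The actin-binding genes were the most abundant homeostatic genes with the adaptors. AIF1, whose protein Iba1 is the usual stain for microglia, had 477 FPKM in No-SCI and 417 in SCI, at percentiles 96.9 and 96.1 of all symbols, and its log2 ratio was −0.20. CORO1A, a coronin of leukocytes that binds actin filaments, had 99.7 and 64.6 FPKM, a log2 ratio of −0.63. Summed over the 13 homeostatic genes, the level was 1232 FPKM in No-SCI and 1208 in SCI (1208.5 before rounding), since AIF1, FCER1G and TYROBP hold most of it.

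**Figure D2:**
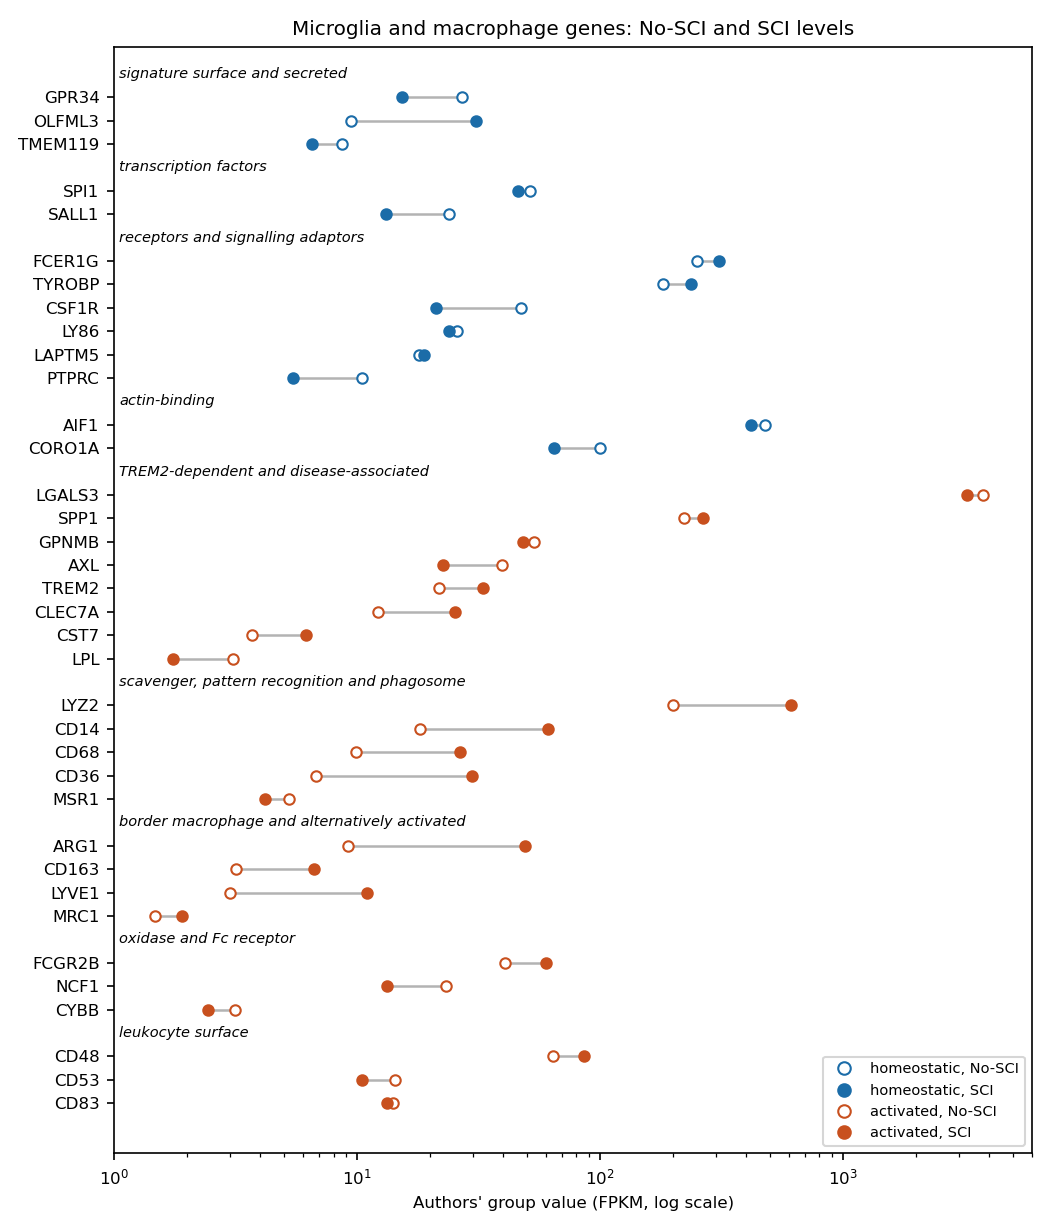
Authors' group values of the 36 listed genes in FPKM on a log axis, grouped by role, with open circles for No-SCI and filled circles for SCI (1 value per group, no error bars). LGALS3 is highest in both groups, and in the row of scavenger and phagosome genes LYZ2, CD14, CD68 and CD36 lie further right in SCI.

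SPI1 encodes PU.1, which binds purine-rich sites with a GGAA core, and the promoters of the genes were searched for the letters GAGGAAG on either strand (CTTCCTC on the other). RefSeq promoter sequences of the rat assembly GRCr8, from 250 bases before to 50 after the transcription start, were matched by symbol for 26 of the 40 genes. The letters occurred in 10 of these 26 (38.5%), against 12.4% of all 33469 promoters and 13.2% of the 10771 promoters of symbols in the expression table. They were found in 2 of 7 homeostatic and 8 of 19 activated promoters. Of the matched genes past 2-fold, 4 of 9 had the letters (CD14, CD36, CD68 and CSF1R), and of the listed genes within 2-fold 6 of 15 did (AXL, CD53, GPNMB, LAPTM5, MRC1 and TREM2). A match describes letters only and is no binding site.

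Stretches of 100 bases before the start are shown for 6 of the 10, to let the position of the letters be seen in the 3 genes that differed by at least 2-fold and carry them upstream and in 3 genes where they lie close to the start; the letters are in capitals, 5′ to 3′ on the gene's strand, and CTTCCTC is the same site on the other strand. The stretches are CD14 at chr18:28611229-28611328 on the minus strand, CD36 at chr4:18246332-18246431 on the plus strand, CSF1R at chr18:56834129-56834228 on the plus strand, TREM2 at chr9:20151780-20151879 on the minus strand, LAPTM5 at chr5:148371780-148371879 on the plus strand and CD53 at chr2:197087897-197087996 on the minus strand.
CD14: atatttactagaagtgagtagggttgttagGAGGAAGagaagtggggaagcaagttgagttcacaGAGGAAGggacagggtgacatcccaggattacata
CD36: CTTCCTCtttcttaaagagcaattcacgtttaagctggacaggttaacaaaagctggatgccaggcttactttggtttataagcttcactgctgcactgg
CSF1R: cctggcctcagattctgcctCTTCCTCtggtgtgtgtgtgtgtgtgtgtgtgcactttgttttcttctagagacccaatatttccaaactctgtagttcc
TREM2: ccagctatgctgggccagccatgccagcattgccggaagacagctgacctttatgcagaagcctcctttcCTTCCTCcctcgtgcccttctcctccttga
LAPTM5: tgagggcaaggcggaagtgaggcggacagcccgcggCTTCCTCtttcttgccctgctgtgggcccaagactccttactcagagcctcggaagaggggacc
CD53: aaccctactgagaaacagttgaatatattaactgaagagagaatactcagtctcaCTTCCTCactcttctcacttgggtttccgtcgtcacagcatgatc
CD14 carries the letters 2 times, starting 140 and 105 bases before the start, both on its own strand. In TREM2, CD53 and LAPTM5 they begin 30, 45 and 64 bases before the start, and in MRC1 36 bases, each time on the other strand. CSF1R and CD36 carry them further away, at 230 and 250 bases, also on the other strand.

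**Figure D3:**
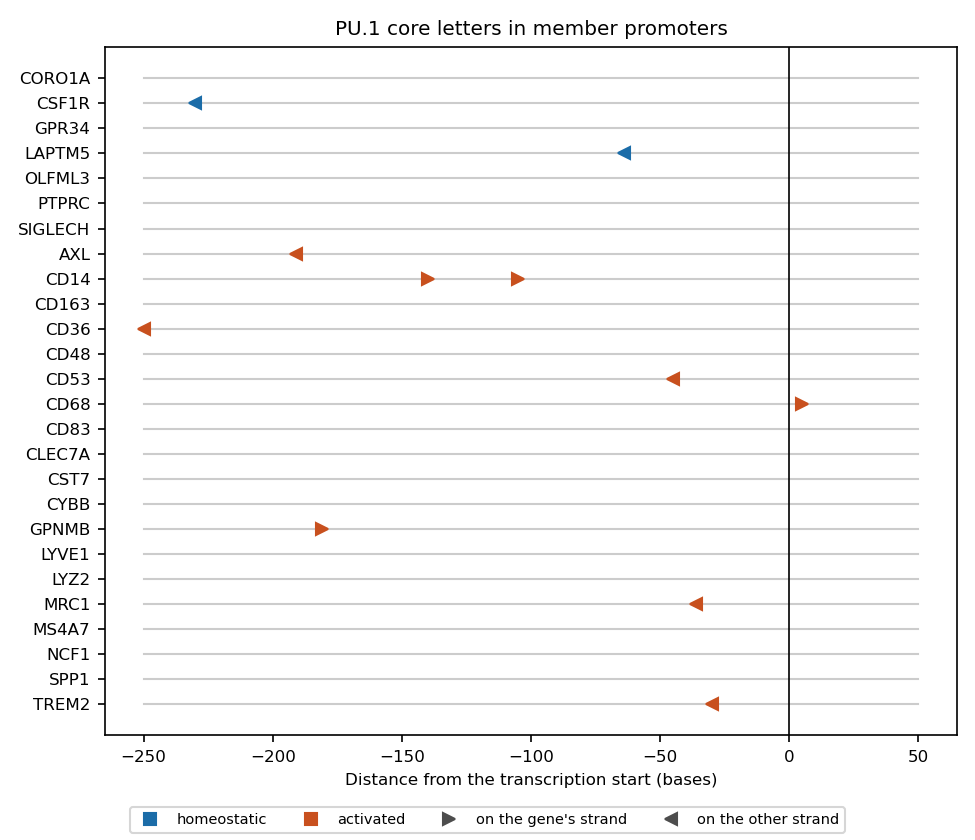
Position of the letters GAGGAAG in the promoters of the 26 matched genes, in bases from the transcription start, pointing right on the gene's strand and left on the other (homeostatic genes blue, activated genes orange). They occur in 10 of the 26 promoters, and CD14 has them at 140 and 105 bases before the start.

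The genes of the TREM2-dependent, or disease-associated, state differed in direction among themselves. Their median log2 ratio was 0.05 over 8 genes, 4 higher and 4 lower. TREM2, a lipid-sensing receptor, had 21.8 FPKM in No-SCI and 32.8 in SCI (log2 ratio 0.59). CLEC7A, the beta-glucan receptor Dectin-1, had 12.1 and 25.3 FPKM and was the only one of the 8 past 2-fold (2.08-fold higher, log2 ratio 1.06), which it no longer was with a pseudocount of 1 FPKM. CST7, an inhibitor of cysteine proteases, stood at 3.68 and 6.17 FPKM (log2 ratio 0.74), low in both groups.

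The other members of that state differed by less than 2-fold, and 4 of these 5 were lower. SPP1 (osteopontin), a secreted phosphoprotein that neurons and other glia can also make, had 222 and 265 FPKM (log2 ratio 0.26). GPNMB, a glycoprotein of phagocytes, had 53.3 and 48.0 FPKM (log2 ratio −0.15). LGALS3, galectin-3, was by far the most abundant of the 36 genes, with 3755 FPKM in No-SCI (rank 30 of all symbols) and 3253 in SCI (rank 36), a log2 ratio of −0.21. It made up 65.2% of the summed level of the 36 genes in No-SCI and 55.6% in SCI. AXL, a receptor tyrosine kinase for GAS6, had 39.5 and 22.5 FPKM (log2 ratio −0.81), and LPL, lipoprotein lipase, 3.10 and 1.75 FPKM (log2 ratio −0.82, or −1.48 with 1 subtracted from both values). Both are also expressed outside myeloid cells.

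Of the 5 scavenger receptors, pattern recognition genes and phagosome genes, 4 (80%) were at least 2-fold higher, beside 7.93% of all symbols. The median log2 ratio of the 5 was 1.61. LYZ2, lysozyme, had 201 FPKM in No-SCI and 611 in SCI (3.05-fold, log2 ratio 1.61), at percentiles 92.0 and 97.6 of all symbols, and in SCI it was second to LGALS3 among the 36. CD14, the co-receptor for bacterial lipopolysaccharide, had 18.1 and 60.9 FPKM (3.37-fold, log2 ratio 1.75). CD68, a lysosomal glycoprotein used as a marker of phagocytosis, had 9.89 and 26.6 FPKM (2.69-fold, log2 ratio 1.43). CD36, a scavenger receptor for oxidized lipids that endothelium and muscle share, had 6.76 and 29.6 FPKM (4.38-fold, log2 ratio 2.13). The exception was MSR1, the class A scavenger receptor, with 5.24 and 4.19 FPKM (log2 ratio −0.32).

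Genes of border macrophages and of the alternatively activated state were all higher, from low levels. Of these 4 genes, 3 (75%) were at least 2-fold higher, beside 7.93% of all symbols. ARG1, arginase 1, had 9.20 FPKM in No-SCI and 49.0 in SCI, 5.33-fold higher and the largest log2 ratio of the 36 genes (2.41). LYVE1, a hyaluronan receptor of perivascular macrophages and lymphatic vessels, had 3.01 and 10.99 FPKM (3.65-fold, log2 ratio 1.87). CD163, the receptor for haemoglobin bound to haptoglobin, had 3.19 and 6.67 FPKM (2.09-fold, log2 ratio 1.07), also short of 2-fold with a pseudocount of 1 FPKM. MRC1, the mannose receptor, was the lowest of the 36 genes in No-SCI, with 1.47 FPKM and 1.89 in SCI (log2 ratio 0.37).

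The remaining activated genes differed by less than 2-fold. CYBB and NCF1, the membrane and an organizing subunit of the phagocyte NADPH oxidase, had 3.14 and 2.44 FPKM (log2 ratio −0.36) and 23.3 and 13.3 FPKM (log2 ratio −0.81). FCGR2B, the inhibitory Fc gamma receptor, had 40.5 FPKM in No-SCI and 59.9 in SCI (log2 ratio 0.56), but it has close paralogs that could share reads with it, as does LYZ2. Of the leukocyte surface proteins, CD48 had 64.0 and 85.6 FPKM (log2 ratio 0.42), the tetraspanin CD53 14.4 and 10.5 FPKM (log2 ratio −0.45) and CD83 14.1 and 13.3 FPKM (log2 ratio −0.09, positive once all symbols were centred or scaled to the same upper quartile).

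**Figure D4:**
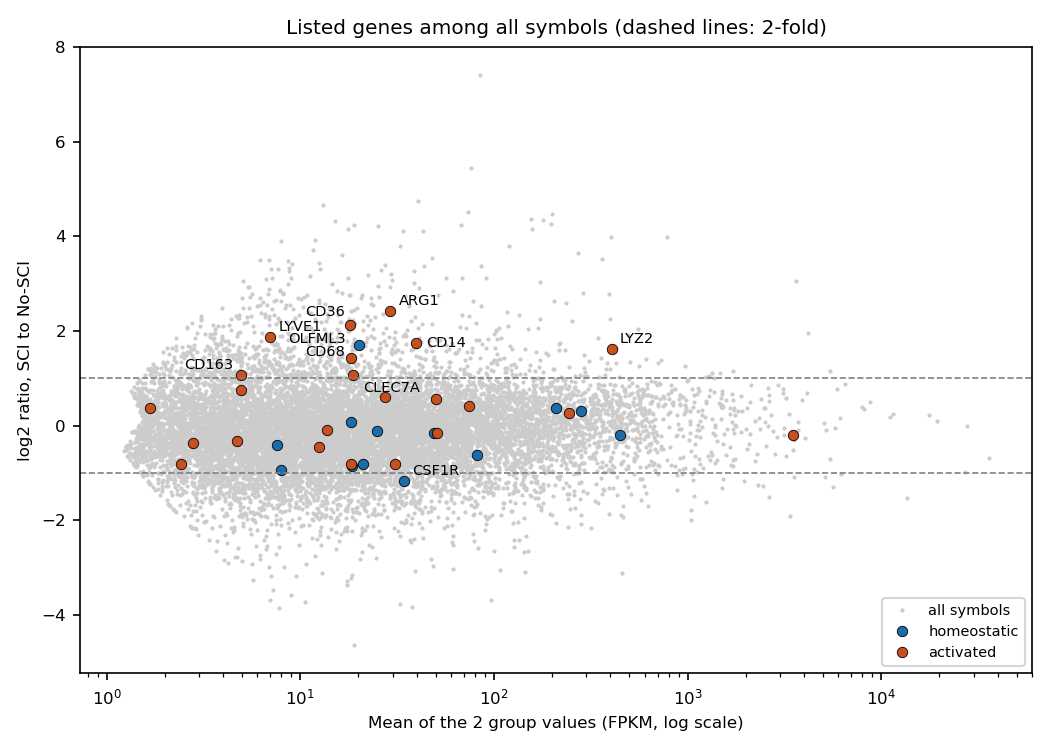
Log2 ratio of SCI to No-SCI against the mean of both group values (FPKM, log axis) for all symbols in grey, homeostatic genes in blue and activated genes in orange; genes past 2-fold are named. LYZ2 is the most abundant of the named genes, at a log2 ratio of 1.61, and CSF1R is the named gene below the lower dashed line.

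Ratios between genes within a group do not depend on how the groups were scaled. Relative to AIF1, LYZ2 stood at 0.420 without injury and at 1.47 after SCI. CD14 stood at 0.0379 and 0.146. The ratio of CSF1R to AIF1 was 0.0993 in No-SCI and 0.0506 in SCI, while that of SPI1 to AIF1 was nearly the same, 0.108 and 0.111. CD14 relative to CSF1R was 0.381 in No-SCI and 2.89 in SCI, so the higher of the pair was CSF1R in No-SCI and CD14 in SCI. The ratio of TREM2 to its adaptor differed little, at 0.120 TREM2 per TYROBP in No-SCI and 0.139 in SCI. In the order of levels among the 36 genes, CSF1R went from place 11 to 21 and SALL1 from 16 to 26, and ARG1 went from 27 to 11 and CD36 from 29 to 16.

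Other genes of the microglial signature, taken from a separate list of 23, had the same direction as most homeostatic genes. Of its 22 listed genes 18 were lower in SCI, 7 of them (31.8%) by at least 2-fold, 2 (9.09%) were at least 2-fold higher, and the median log2 ratio was −0.57. The shares of all symbols were 12.1% at least 2-fold lower and 7.93% at least 2-fold higher, so the higher share was near the background. P2RY12, the purine receptor of resting microglia, had 21.5 FPKM in No-SCI and 10.8 in SCI. The fractalkine receptor CX3CR1 had 16.8 and 7.06 FPKM (log2 ratio −1.25), VSIR, an immune checkpoint protein, 32.7 and 12.1 FPKM (log2 ratio −1.43), and ITGB2, the beta chain of leukocyte integrins, 12.2 and 5.92 FPKM (log2 ratio −1.04). At least 2-fold higher were ENTPD1, the ectonucleotidase CD39 (6.44 and 19.3 FPKM, log2 ratio 1.58), and C1QC, a chain of complement C1q (61.0 and 136 FPKM, log2 ratio 1.16). The other C1q chains were also higher, by less than 2-fold, C1QA with 68.1 and 92.9 FPKM (log2 ratio 0.45) and C1QB with 95.7 and 151 FPKM (log2 ratio 0.66). SPARC, a matrix protein that fibroblasts also make, was the most abundant of this list, with 271 and 267 FPKM.

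Ligands of the microglial receptors differed in direction. Of 11 ligands and binding partners, 1 was at least 2-fold higher and 1 at least 2-fold lower (9.09% each), shares near those of all symbols (7.93% and 12.1%). These 2 genes, CSF1 and IL34, encode ligands of CSF1R. CSF1 had 43.5 FPKM in No-SCI and 19.4 in SCI (log2 ratio −1.16), and IL34 had 8.22 and 40.3 FPKM (log2 ratio 2.29), so that IL34 exceeded CSF1 in SCI. APOE, a lipid carrier that TREM2 binds, was the most abundant, with 10448 and 11804 FPKM.

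Of the signalling partners downstream of the activation motif, 7 of 9 listed genes were lower, with 0 at least 2-fold higher and 2 (22.2%) at least 2-fold lower. Of all 12758 symbols 7190 were lower, with 7.93% at least 2-fold higher and 12.1% at least 2-fold lower. PLEK (pleckstrin) had 54.7 and 25.2 FPKM, and PIK3AP1, an adaptor for phosphoinositide 3-kinase, 12.1 and 5.09 FPKM. SYK and PLCG2 had no entry. Of 5 further oxidase subunits 1 (20%) was past 2-fold. It was CYBA, the partner chain of CYBB, with 17.2 FPKM in No-SCI and 42.7 in SCI (log2 ratio 1.31), opposite to CYBB itself. RAC2 was the most abundant of the 5 in No-SCI, with 140 FPKM there and 126 in SCI.

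Macrophage transcription factors were higher in 10 of 14 cases, unlike SALL1 and SPI1, with 4 (28.6%) at least 2-fold higher and 0 at least 2-fold lower. Of all symbols, 43.6% were higher, 7.93% by at least 2-fold, and 12.1% were at least 2-fold lower. The median log2 ratio of the 14 factors was 0.36. Lower ones included MEF2C (112 and 61.3 FPKM, log2 ratio −0.88) and IRF5 (86.7 and 47.7 FPKM, log2 ratio −0.86). CEBPB, which acts in inflammatory macrophages, had 10.3 FPKM in No-SCI and 33.0 in SCI (log2 ratio 1.68), and RUNX1 had 14.9 and 43.8 FPKM (log2 ratio 1.55). MITF, at 182 and 178 FPKM, was the most abundant. Among 21 listed genes of a further activation list, 4 were at least 2-fold higher and 0 at least 2-fold lower. IGF1, a growth factor of activated microglia and of meningeal fibroblasts, had 99.9 and 687 FPKM (log2 ratio 2.78). The sterol hydroxylase CH25H had 4.71 and 12.5 FPKM, and the chemokine CCL4 3.66 and 9.28 FPKM. PLIN2, a coat protein of lipid droplets, was the most abundant of that list in No-SCI, with 1579 FPKM there and 1264 in SCI.

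Markers of other cell types differed between the groups alongside the activated genes. Of all symbols, 7.93% were at least 2-fold higher and 12.1% at least 2-fold lower. Of 12 meningeal fibroblast genes 11 were at least 2-fold higher, among them OSR1, IGFBP6 and CRABP2, and their summed level was 77.4 FPKM in No-SCI and 943 in SCI. Among 10 further border macrophage genes 4 were listed and 3 at least 2-fold higher, including FOLR2 (18.6 and 58.6 FPKM) and CLEC10A (6.05 and 24.8 FPKM), while PF4 was lower (5.03 and 2.86 FPKM, log2 ratio −0.82), with summed levels of 33.0 and 93.0 FPKM. Of 12 neutrophil genes 4 were listed. S100A8 had 32.4 FPKM in No-SCI and 94.1 in SCI, and S100A9 had 14.3 and 46.6 FPKM. The receptor gene CSF3R was lower, with 17.1 and 8.97 FPKM (log2 ratio −0.93), and MPO, ELANE, MMP8 and CAMP had no entry. The summed levels were 64.9 and 152 FPKM. Of 10 monocyte genes 6 were listed, with sums of 74.5 and 104 FPKM, 1 of them at least 2-fold higher and 1 at least 2-fold lower. PLAC8 (12.8 and 31.9 FPKM) was the higher one. The lower one was LY6C, with 5.72 FPKM in No-SCI and a log2 ratio of −1.93. FN1 (fibronectin) was the most abundant with 45.5 and 59.3 FPKM, and CCR2, the receptor that defines inflammatory monocytes, had no entry. Of 12 lymphocyte genes 4 were listed, 0 of them past 2-fold, and LCK, a T cell kinase, was the highest with 6.27 and 6.40 FPKM.

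LYZ2, CD14, CD36 and ARG1 are also expressed by monocytes or neutrophils, and LYVE1, CD163 and MRC1 by macrophages of the meninges. The part of these cells, and of the tissue sampled, in the values of the activated genes was not tested. Genes of astrocytes, oligodendrocytes and neurons were mostly lower, with median log2 ratios of −1.31 over 7 genes, −1.62 over 11 and −0.75 over 10, while 14 genes expressed in nearly all cells had a median of −0.06. The 9 listed endothelial genes had a median of 0.17. At least 2-fold higher were 2 of them (22.2%), CDH5 and EGFL7, beside 7.93% of all symbols. MOBP, a myelin protein of oligodendrocytes, was the most abundant of all symbols in No-SCI, with 44200.3 FPKM and 27648 in SCI, while GFAP, MBP and SNAP25, usual markers of astrocytes, myelin and neurons, had no entry.

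**Figure D5:**
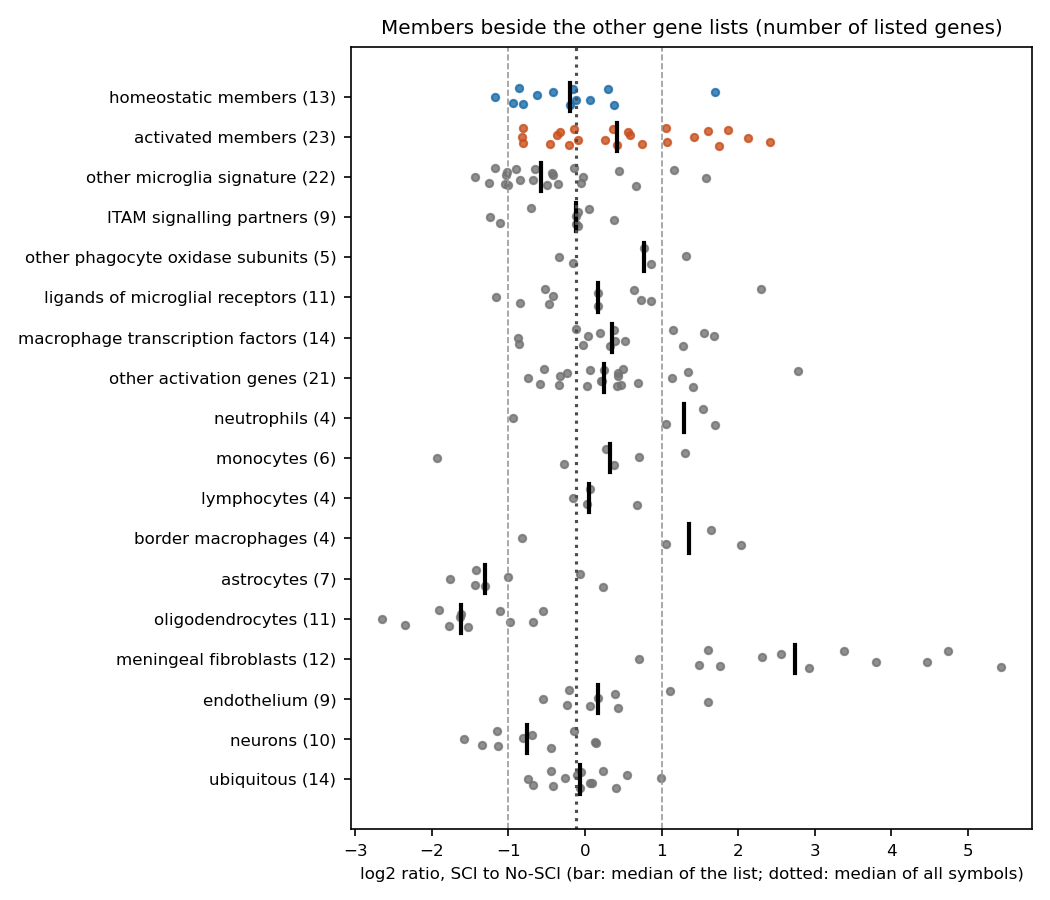
Log2 ratio of SCI to No-SCI for each listed gene of the homeostatic and activated sets and of the 16 other gene lists, with a bar at the median of each, dashed lines at 2-fold and a dotted line at the median of all symbols. The other microglia signature has its median at −0.57 and meningeal fibroblasts at 2.75.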

How the data were processed

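The samples were the supernatant fraction of spinal cord of rats with laminectomy alone (No-SCI, 2 libraries) or with contusion (SCI, 1 library), grouped by the treatment label. The authors cut all libraries down to the size of the smallest, aligned reads to rn6 with STAR 2.5.4b, estimated FPKM values per group with Cuffdiff 1.3.0 and upper quartile normalization, and deposited 1 FPKM value per group. The table also holds the authors' own comparison (ratio, p, q and significance), which was not used. All measurement columns (2) were matched to a group, and 0 were left without one.

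From these values log2(SCI / No-SCI) was taken with no pseudocount, along with percentiles, counts at least 2-fold higher or lower, and medians over lists. For 13 symbols listed more than once (12771 entries in all) the entry with the larger mean was taken. No value lies below 1, and 87.7% of the values between 1 and 2 carry 6 decimals. The values may thus include an added 1, which no source used here states. Subtracting 1 from every value was therefore added as an alternative after the data were seen. Of the 36 genes, 21 have a value printed with more than 6 digits, so these may combine several estimates, which was not tested. The genes and lists were chosen with earlier results of these data known. Named were all 40 genes and the fixed microglia markers P2RY12 and CX3CR1. Of each other list, the most abundant gene in No-SCI was named. So were up to 3 of its genes past 2-fold in a direction with a mean of at least 5 FPKM. Those of the astrocyte, oligodendrocyte, endothelial, neuronal and ubiquitous lists are given as medians alone, apart from MOBP, CDH5 and EGFL7. CSF3R, PF4, LY6C, C1QA, C1QB, MEF2C and IRF5 were named after their values were seen. Absent genes named are examples, and some genes this rule selects are not reported here.

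Promoters were taken from RefSeq (GRCr8) by symbol, an assembly other than rn6, and no further coordinates are given. A planned search of protein sequences for the activation motif was not run. The steps were tested on simulated data. Python 3.11.15, numpy 2.4.6, pandas 2.3.3 and matplotlib 3.10.9 were used. Alternatives were pseudocounts of 1 and 0.1, centring, scaling to the same sum or upper quartile, a mean of at least 5 FPKM, summed entries, fold minimums of 1.5 and 1.3, means in place of medians, and leaving out 10 genes also expressed outside myeloid cells, all of them activated genes.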

Additional observations from a re-analysis of the deposited data

How the results depend on the processing

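With 1 value per group, no replicate could be left out and no paired analysis was possible because no value per library was used. The median log2 ratio of the activated genes stayed positive under every pseudocount, scaling, centring, filter and list alternative tried. That of the homeostatic genes stayed negative under every pseudocount, scaling and centring, but was only −0.08 with the median of all symbols set to 0. The filter removed no homeostatic gene. The 10 genes left out as also expressed outside myeloid cells were all activated, and OLFML3 was not among them. The homeostatic median therefore could not change in these 2 alternatives. The difference between the classes ran from 0.61 with a pseudocount of 1 FPKM to 0.79 with those 10 genes left out. No alternative turned a gene past 2-fold to the other direction. With a pseudocount of 1, CLEC7A and CD163 no longer passed 2-fold, which left 6 activated genes (6.38% of all symbols were then at least 2-fold higher). Centring the median of all symbols changed the sign of LY86 and CD83, and scaling to the same upper quartile that of CD83 alone. After subtraction of 1 (added once the data had been seen), PTPRC (log2 ratio −1.09) and LPL (−1.48) also passed 2-fold, so that 2 homeostatic genes and 1 activated gene were at least 2-fold lower (16.2% of all symbols), and the log2 ratio of MRC1 was 0.93. With a 1.5-fold minimum 5 homeostatic and 3 activated genes were lower (26.3% of all symbols) and 10 activated genes higher (16.9%), and with a 1.3-fold minimum 2 homeostatic and 12 activated genes were higher (24.6% of all symbols) and 6 homeostatic and 4 activated genes lower (35.7% of all symbols). The depth behind the low values is unknown.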
